A study of Homo sapiens with 12 samples.

Results

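The 10 genes described here encode transcription factors and cofactors, most of them known for their activation in T cell acute lymphoblastic leukemia. The list is TAL1, LYL1, LMO1, LMO2, TLX1, TLX3, HHEX, MYB, MEF2C and ZNF521. These genes were taken by gene symbol from the deposited table of 17589 genes, which held 9 of the 10. TLX3 was not in that table, LMO1 and TLX1 had at most 3 counts in any library, and the other 7 passed the filter on low counts. The list was chosen by the measured levels, with the differences of FR1 and FR2 from CTRL and hnCD16 already known. Those differences are therefore described here without a test. For these genes only hnCD16 against CTRL and FR1 against FR2 are tested.

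RNA-seq was run on 12 libraries, all labelled as YT, a human natural killer (NK)-like lymphoid line, in 4 groups of 3. All cells had been infected with a lentiviral vector whose insert was under the constitutive EF1A promoter, and they were profiled without stimulation. CTRL cells carried eGFP alone, hnCD16 cells a high-affinity non-cleavable CD16, FR1 cells the hnCD16 ectodomain joined to cytoplasmic domains of 2B4, DAP10 and CD3ζ, and FR2 cells the same ectodomain joined to DAP10 and CD3ζ. Nothing in the labels says that the 3 libraries of a group came from separate transductions or cultures, so each p-value measures the spread between these libraries, which may be technical.

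In developing T cells, TAL1 and LYL1 are basic helix-loop-helix proteins that bind DNA together with E proteins. LMO1 and LMO2 do not bind DNA and bridge such factors through LDB1 to GATA proteins. Several of these genes, together with HHEX, MYB and MEF2C, are active in blood stem cells or the earliest thymic progenitors, and their continued or ectopic activity in thymocytes is a hallmark of T cell leukemia.

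The libraries held 17714550 to 18729013 counts. FCGR3A, which encodes CD16, had 0 counts in every CTRL library and 453 to 480 in hnCD16, with 559 to 567 for FR1 and 1012 to 1132 for FR2. The labelled cell type was checked with 16 NK markers. In CTRL and hnCD16 only 6 of 16 reached 1 CPM (counts scaled by library size and TMM, the trimmed mean of M-values) in every library, against 11 in FR1 and 12 in FR2, and their summed level was 75.4 to 82.7 CPM in CTRL and hnCD16 and 4666 to 5006 CPM in FR1 and FR2. The cytotoxic granule genes GZMB and PRF1 averaged 0.687 and 0.437 CPM in CTRL and 0.716 and 0.414 CPM in hnCD16, but 2780 and 423 CPM in FR1 and 2557 and 543 CPM in FR2. NCR3 and CD7 went the other way, from 5.4 and 31.2 CPM in CTRL to 0.825 and 0.825 CPM in FR1. The CTRL and hnCD16 libraries thus went against the NK label at these defining markers, and TYROBP and KLRF1 were near 0 in all 4 groups. Of 9 T cell markers, 7 reached 1 CPM in every CTRL and hnCD16 library and 4 in FR1 and in FR2, with summed levels of 741 to 886 CPM and 230 to 290 CPM. CD3D averaged 440 CPM in CTRL and 521 CPM in hnCD16, and 0.0578 CPM in FR1 and 0.0937 CPM in FR2. CD28 and CD247 went the other way, from 3.18 and 78.5 CPM in CTRL to 92.4 and 104 CPM in FR1. CD247 encodes CD3ζ, whose cytoplasmic domain both fusion receptors carry. Whether reads of the construct enter CD247, and so the marker count and summed level of FR1 and FR2, was not tested. The same holds in FR1 for the NK marker CD244, which encodes 2B4. CD244 averaged 6.3 CPM in CTRL, 129 CPM in FR1 and 115 CPM in FR2, whose receptor has no 2B4 domain. B cell markers reached 1 CPM for 2, 2, 1 and 1 of 5 in CTRL, hnCD16, FR1 and FR2, myeloid for 2, 2, 3 and 3 of 5, erythroid and megakaryocyte for 1, 1, 0 and 0 of 7, and blood progenitor for 0, 1, 1 and 1 of 4. The groups are called by their labels below. These marker differences run with every difference of FR1 or FR2 from CTRL or hnCD16, and their part in it cannot be told apart from the receptor. Whether CTRL and hnCD16 came from the same cells as FR1 and FR2 was not tested, and a difference between the cells of the 2 pairs cannot be told apart from the receptor either. In bulk RNA, fewer cells of a type and less RNA per cell cannot be told apart either.

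RefSeq sequence upstream of the start sites (GRCh38.p14) was held for 8 of the 10 genes, and not for LMO2 or ZNF521. The 250 bases before the start are printed for 4 of them, chosen to set 3 genes with next to no counts in FR1 and FR2 beside MYB, which was read in every group. Capitals mark GATAA, or TTATC where it lies on the other strand, the core letters bound by GATA factors.
TAL1, 5′-most start, chr1:47232336-47232585, minus strand: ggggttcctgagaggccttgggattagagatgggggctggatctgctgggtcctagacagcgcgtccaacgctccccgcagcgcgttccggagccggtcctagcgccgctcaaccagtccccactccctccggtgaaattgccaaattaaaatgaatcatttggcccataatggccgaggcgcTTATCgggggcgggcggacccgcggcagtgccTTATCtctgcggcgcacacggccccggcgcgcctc
LYL1, chr19:13102859-13103108, minus strand: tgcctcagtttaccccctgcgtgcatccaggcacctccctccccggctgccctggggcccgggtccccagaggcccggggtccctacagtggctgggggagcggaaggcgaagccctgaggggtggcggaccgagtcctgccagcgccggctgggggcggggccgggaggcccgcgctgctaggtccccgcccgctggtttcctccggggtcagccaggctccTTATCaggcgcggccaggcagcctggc
HHEX, chr10:92689705-92689954, plus strand: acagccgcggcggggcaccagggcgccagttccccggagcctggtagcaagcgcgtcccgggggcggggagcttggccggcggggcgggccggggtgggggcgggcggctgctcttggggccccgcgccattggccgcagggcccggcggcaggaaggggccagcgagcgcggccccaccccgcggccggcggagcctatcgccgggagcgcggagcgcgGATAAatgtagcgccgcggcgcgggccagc
MYB, chr6:135181058-135181307, plus strand: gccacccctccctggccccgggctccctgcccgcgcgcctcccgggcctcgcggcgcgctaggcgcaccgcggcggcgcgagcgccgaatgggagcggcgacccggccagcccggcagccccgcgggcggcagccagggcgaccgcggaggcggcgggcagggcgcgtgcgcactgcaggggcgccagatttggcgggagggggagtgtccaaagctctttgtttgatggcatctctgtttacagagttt
The TAL1 window held 2 matches, those of LYL1 and HHEX 1 each and that of MYB 0. The other TAL1 window (chr1:47231716-47231965) held 0, and of 7 windows of MEF2C, also read in every group, 3 held 1, 1 and 3 matches. Those of TLX3, LMO1 and TLX1 held 1, 0 and 0. Over 35116 RefSeq windows of this length, 20.4% held at least 1 match and 3.87% held 2 or more. CAGCTG, an E-box read the same on both strands, was in none of the 4 windows printed, in 2 of the MEF2C windows and in 14% of all windows. A match describes letters only. The windows follow RefSeq starts, and those of LYL1 and the other TAL1 start lie inside the gene as GENCODE places it below.

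The 7 tested genes showed 2 patterns. TAL1, LYL1, LMO2, HHEX and ZNF521 had 167 counts or more in each of the 6 CTRL and hnCD16 libraries and at most 2 counts in each of the 6 FR1 and FR2 libraries, where the 5 genes together summed to 8 counts. MYB and MEF2C were read in all 12 libraries at lower levels in FR1 and FR2. Of all 13657 genes tested, 605 (4.43%) had at most 3 counts in every FR1 and FR2 library and more than 3 in every other, and 387 (2.83%) showed the opposite. A gene was called a differentially expressed gene (DEG) where edgeR's quasi-likelihood test gave a log2 fold change of 1 or more in size with p, adjusted over all genes by Benjamini-Hochberg, no higher than 0.05. All 7 met these thresholds as lower in FR1 against hnCD16, as 19.6% of all genes did, in FR2 against hnCD16 (19.8%), in FR1 against CTRL (19.8%) and in FR2 against CTRL (19.6%). The choice of the list fixed these 4 counts, so nothing is read from them, and FR1 and FR2 share their controls in these comparisons.

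**Figure D1:**
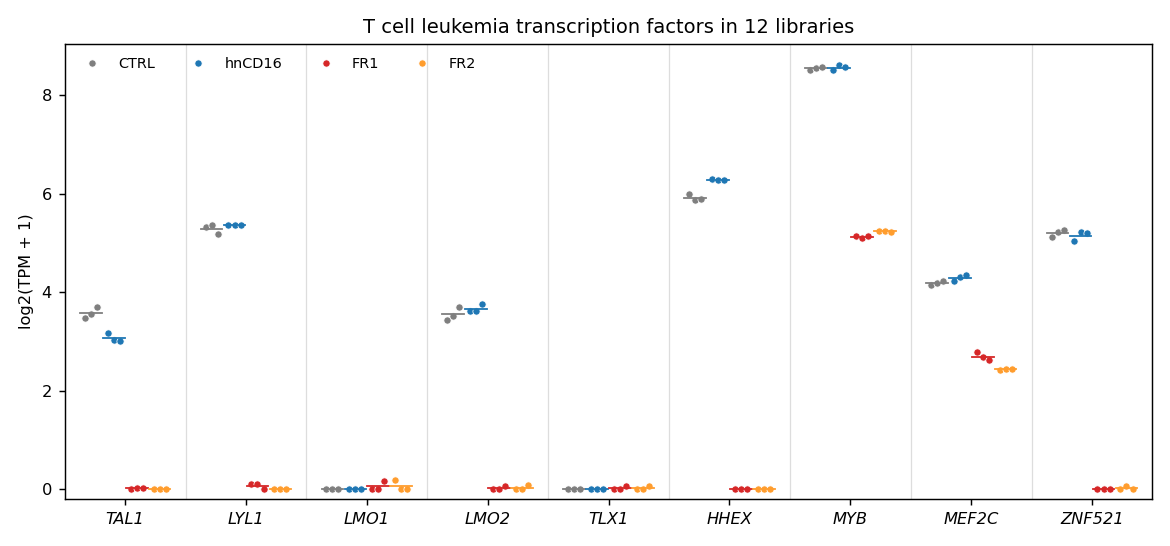
The 9 factors in the table are shown as log2(TPM + 1), 1 point per library and a line at the mean of each group's 3 libraries. TAL1, LYL1, LMO2, HHEX and ZNF521 lie at or near 0 in FR1 and FR2, MYB and MEF2C are lower there but present, and LMO1 and TLX1 lie at or near 0 in all 4 groups.

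Levels of different genes were compared on the deposited TPM, which is per length. MYB was the most abundant factor in every group, at 373 ± 7.38 TPM (SD, n = 3 here and below) in CTRL and 378 ± 13.9 TPM in hnCD16, within the top 2.18% and 2.21% of all genes. In CTRL it was followed by HHEX at 59.5 ± 2.85 TPM, LYL1 at 38.2 ± 2.5 TPM, ZNF521 at 35.8 ± 1.79 TPM, MEF2C at 17.3 ± 0.481 TPM, TAL1 at 10.9 ± 0.977 TPM and LMO2 at 10.7 ± 1.14 TPM. The ranges of LYL1 and ZNF521 overlapped, as did those of TAL1 and LMO2, and no other neighbors in this order overlapped. In hnCD16 LMO2 averaged 11.7 ± 0.809 TPM and TAL1 7.40 ± 0.493 TPM, and there the ranges of this pair did not overlap, nor did those of LYL1 at 40.2 ± 0.117 TPM and ZNF521 at 34.6 ± 2.40 TPM. In FR1 and FR2 only MYB, at 34.0 ± 0.648 and 36.8 ± 0.291 TPM, and MEF2C, at 5.48 ± 0.376 and 4.40 ± 0.0404 TPM, averaged above 1 TPM.

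TAL1 (Entrez Gene 6886, chr1:47216290-47232225, minus strand, GENCODE 44 on GRCh38, as for the positions below) is the founding basic helix-loop-helix oncogene of T cell leukemia and a regulator of blood stem cells. It had 481, 478 and 502 counts in CTRL, and 398, 340 and 331 in hnCD16. FR1 had 0, 1 and 1, and each FR2 library had 0. Every hnCD16 library was below every CTRL library, and FR1 and FR2 were at the floor, taken as 3 counts per library, which covers counting error only. TAL1 was 1.28-fold lower in hnCD16 than in CTRL (log2 fold change −0.35 ± 0.086 SE, edgeR adjusted p = 0.00418), short of the fold threshold. Each SE of a log2 fold change, here and below, is its size divided by the square root of the edgeR test's F statistic. Such an SE is approximate and can fall below counting error where the difference is large. Against hnCD16 the ratio of summed counts to FR1 was 500 (95% counting interval 138 to 4131), and TAL1 was at least 113-fold lower in FR2. Against CTRL the ratio was 638 (176 to 5272) for FR1, and the level was at least 144-fold lower in FR2.

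LYL1 (4066, chr19:13099033-13103161, minus strand) is the close relative of TAL1. It had 587, 583 and 499 counts in CTRL, and 624, 607 and 589 in hnCD16. FR1 had 1, 1 and 0, and each FR2 library had 0. CTRL averaged 28.0 ± 2.77 CPM and hnCD16 32.7 ± 1.33, and the lowest hnCD16 library was above the highest CTRL library. The difference was 1.17-fold (log2 fold change 0.22 ± 0.0792, edgeR adjusted p = 0.0336). It missed an adjusted p of 0.05 without CTRL replicate 2 (0.0665), without CTRL replicate 3 (0.185), without hnCD16 replicate 1 (0.105) and without hnCD16 replicate 2 (0.0871). It also missed it in DESeq2 (0.0673) and in edgeR on only these 2 groups (0.0587). The ratio of hnCD16 to FR1 was 851 (235 to 7030), and LYL1 was at least 193-fold lower in FR2. Against CTRL these were a ratio of 729 (201 to 6022) and at least 165-fold.

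The LIM-only cofactors differed from each other. LMO2 (4005, chr11:33858576-33892076, minus strand) had 167, 199 and 212 counts in CTRL, and 213, 206 and 222 in hnCD16, but 0, 0 and 1 both for FR1 and for FR2. The ratio of hnCD16 to FR1 was 599 (107 to 23705) and to FR2 610 (109 to 24133), and those of CTRL were 505 (90.2 to 19968) and 514 (91.8 to 20328). These intervals are wide because a single count stood in each denominator. LMO2 averaged 9.68 ± 1.04 CPM in CTRL and 11.5 ± 0.342 CPM in hnCD16, a log2 difference of 0.25 ± 0.111 that missed the threshold (edgeR adjusted p = 0.0833). LMO1 (4004, chr11:8224309-8268716, minus strand), the other leukemia oncogene of the family, had 0 counts in all CTRL and hnCD16 libraries, 0, 0 and 1 in FR1 and 3, 0 and 0 in FR2. It was therefore not detectable above the floor at this depth.

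Of the homeobox genes, HHEX alone was read. HHEX (3087, chr10:92689955-92695647, plus strand), a factor of blood progenitors that is also a known target of LMO2 in leukemic thymocytes, had 1100, 977 and 960 counts in CTRL, 1410, 1353 and 1316 in hnCD16, and 0 in each of the 6 FR1 and FR2 libraries. It was at least 424-fold lower in FR1 and 431-fold lower in FR2 than in hnCD16, and at least 295-fold and 300-fold lower than in CTRL. The lowest hnCD16 library was above the highest CTRL library. HHEX averaged 50.9 ± 4.58 CPM in CTRL and 73.2 ± 3.40 CPM in hnCD16, 1.44-fold higher (log2 fold change 0.52 ± 0.0686, edgeR adjusted p = 0.000102). TLX1 (3195, chr10:101131300-101137789, plus strand), which is silent in normal T cells and activated by translocation in leukemia, had 1 count in 1 FR1 and 1 FR2 library and 0 in the other 10.

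MYB (4602, chr6:135181308-135219173, plus strand), a factor of proliferating blood progenitors and thymocytes, had 12583, 12520 and 12329 counts in CTRL and 12907, 13529 and 12880 in hnCD16. It had 1177, 1121 and 1145 counts in FR1 and 1255, 1281 and 1229 in FR2. MYB stayed well above the floor there, at 66.1 ± 1.75 CPM in FR1 and 71.0 ± 1.28 CPM in FR2, compared with 628 ± 14.8 CPM in CTRL and 706 ± 23.4 CPM in hnCD16. The log2 fold changes were −3.42 ± 0.0488 (10.7-fold) for FR1 and −3.31 ± 0.0485 (9.94-fold) for FR2 against hnCD16. Against CTRL they were −3.25 ± 0.0485 (9.49-fold) and −3.14 ± 0.0482 (8.84-fold). FR1 and FR2 differed by −0.10 ± 0.0481 on the log2 scale, which missed the threshold (edgeR adjusted p = 0.109), although every FR1 library lay below every FR2 library. hnCD16 was 1.12-fold above CTRL (log2 fold change 0.17 ± 0.0431, edgeR adjusted p = 0.00448).

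MEF2C (4208, chr5:88717117-88904257, minus strand), a MADS-box factor that marks immature early T cell precursor leukemia, had 944, 908 and 940 counts in CTRL and 1009, 1082 and 1050 in hnCD16. It had 307, 285 and 281 counts in FR1 and 248, 244 and 246 in FR2, so the 4 groups did not overlap. MEF2C showed the smallest difference of the 7 from hnCD16, with log2 fold changes of −1.75 ± 0.0575 (3.36-fold) in FR1 and −2.02 ± 0.0588 (4.05-fold) in FR2. Against CTRL these were −1.48 ± 0.0579 (2.79-fold) and −1.75 ± 0.0593 (3.36-fold). Only MYB and MEF2C were above the floor in FR1 and FR2. Of this pair MEF2C alone passed an adjusted p of 0.05 between FR1 and FR2, as 36.2% of all genes did. It averaged 16.8 ± 0.890 CPM in FR1 and 13.9 ± 0.138 CPM in FR2, a 1.2-fold difference (log2 fold change 0.27 ± 0.0665, edgeR adjusted p = 0.00438). MEF2C was also 1.2-fold higher in hnCD16 than in CTRL (log2 fold change 0.27 ± 0.0509, edgeR adjusted p = 0.000551).

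ZNF521 (25925, chr18:25061924-25352190, minus strand), a zinc finger cofactor of immature blood cells, had 1718, 1789 and 1779 counts in CTRL, 1665, 1852 and 1781 in hnCD16, 0 in every FR1 library and 0, 2 and 0 in FR2. It was at least 550-fold lower in FR1 than in hnCD16 and at least 513-fold lower than in CTRL. The ratio to FR2 was 2521 (698 to 20823) for hnCD16 and 2349 (650 to 19404) for CTRL. hnCD16 and CTRL differed by 0.10 ± 0.0618 on the log2 scale (edgeR adjusted p = 0.21), and the sign turned with library size scaling alone (−0.01) and on TPM (−0.05).

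Between hnCD16 and CTRL, 0 of the 7 were DEGs in edgeR, where 0.527% of all genes were, and DESeq2 also called 0 (0.234%). At an unadjusted p under 0.05 there were 6 (all genes: 49.4%). Without the fold threshold 5 passed an adjusted p of 0.05 (HHEX, MEF2C, MYB, TAL1 and LYL1), beside 43% of all genes. With library size scaling alone the median of all genes moved to −0.12 from −0.01, and MYB (0.06, adjusted p = 0.199) and LYL1 (0.11, adjusted p = 0.254) no longer passed in edgeR. In limma on log2(TPM + 1), MEF2C (0.10, adjusted p = 0.22) was lost as well. HHEX stayed higher and TAL1 lower in hnCD16 with an adjusted p of at most 0.05 under every normalization, filter, unit and left-out library tried. The ratio of HHEX to TAL1 counts, which no scaling enters, was 2.29, 2.04 and 1.91 in CTRL and 3.54, 3.98 and 3.98 in hnCD16. The ratio of TAL1 to LYL1 counts was 0.819, 0.82 and 1.01 in CTRL and 0.638, 0.56 and 0.562 in hnCD16. Neither ratio overlapped between the groups, and for each the exact two-sided permutation p was 0.1, the smallest that 3 against 3 allows. Both ratios were chosen after the values were seen.

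Between FR1 and FR2, 0 of the 7 were DEGs in edgeR (all genes: 1.93%) and 0 in DESeq2 (1.64%). There were 2 at an unadjusted p under 0.05 (43.8%), MYB and MEF2C, and only MEF2C passed after adjustment, beside 36.2% of all genes. MEF2C passed under every alternative, with log2 values of 0.20 to 0.30 when 1 library was left out. MYB, every value of which was lower in FR1, passed with library size scaling alone (−0.17, adjusted p = 0.00262) and without FR1 replicate 1 (−0.15, adjusted p = 0.0295) in edgeR, and in limma on log2(TPM + 1) (−0.11, adjusted p = 0.0211) and log2(TPM + 0.1) (−0.12, adjusted p = 0.0193). LYL1 also passed on log2(TPM + 0.1) (0.51, adjusted p = 0.0448 in limma), on 2 counts in FR1 and 0 in FR2. For the 5 other than MYB and MEF2C, both groups were at or under the floor, and a fitted value does not measure a difference there.

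**Figure D2:**
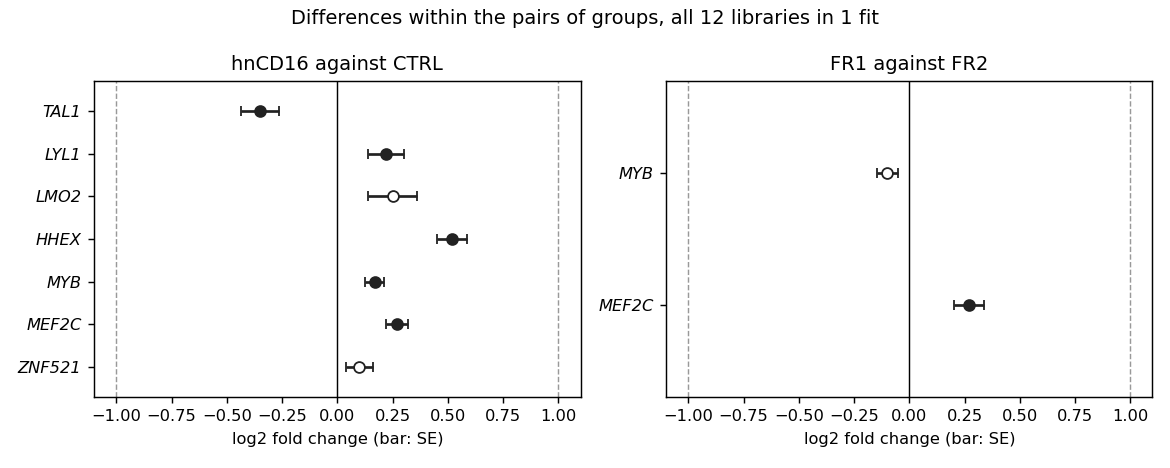
The log2 fold change of each factor is shown with its SE for hnCD16 against CTRL (left) and FR1 against FR2 (right, only the 2 factors above the floor), filled where the edgeR adjusted p is at most 0.05, with dashed lines at the fold threshold. All values lie inside the dashed lines, HHEX at 0.52 and TAL1 at −0.35 are the farthest from 0, and MYB, MEF2C, LYL1, LMO2 and ZNF521 lie between 0.10 and 0.27 in the left panel; the sign of ZNF521 turns with library size scaling and on TPM.

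The transcript table held 8 transcripts of MYB. NM_005375 took 74.3 to 79.8% of the MYB counts in CTRL, and 74.7 to 80.2% in hnCD16, with 69 to 80.7% for FR1 and 72.6 to 90.9% for FR2, so its share overlapped across all groups. NM_001130173 took 4.93 to 6.56% in CTRL and 5.09 to 5.32% in hnCD16, and at most 1.42% in FR1 and 1.12% in FR2. For ZNF521, NM_015461 took 71.3 to 78.5% in CTRL and 59.4 to 65.6% in hnCD16, while NM_001308225 had 0% in every CTRL library and 9.41 to 29.4% in hnCD16. MEF2C counts were spread over 41 listed transcripts and TAL1 counts over 11, with no transcript of MEF2C above 14.1% in any library. These shares are RSEM estimates from short reads and were not tested. Long noncoding RNAs on the opposite strand overlap TAL1, LMO2, MYB, MEF2C and ZNF521 in GENCODE, and whether counting used strand is not given in the sources used here, so reads of the pairs cannot be told apart. MYB-AS1, MEF2C-AS1 and MEF2C-AS2 are among them.

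The proteins that work with these factors were followed in a list of 16 partners and cofactors, of which 15 were tested. This list and those of paralogs, other leukemia factors and early progenitor genes and targets were chosen with earlier results of these data known. Their counts and medians in FR1 or FR2 against CTRL or hnCD16 are therefore descriptions, not tests of the lists. In FR1 against hnCD16, 6 were lower DEGs and 0 higher (all genes: 19.6% and 18.7%). FR2 against hnCD16 also gave 6 and 0 (19.8% and 19.6%). Against CTRL there were 8 lower and 0 higher in each (all genes: 19.8% and 18.3% for FR1, 19.6% and 18.7% for FR2). The median log2 fold change of the 15 was −0.82 in FR1 and −0.68 in FR2 against hnCD16, beside −0.01 and −0.03 over all genes. Within the pairs, 0 were DEGs by edgeR or DESeq2, with 9 at an unadjusted p under 0.05 in hnCD16 against CTRL (all genes: 49.4%) and 8 in FR1 against FR2 (43.8%). CBFA2T3 and GATA2 are counted among the 15 but were at or under the floor in FR1 and FR2. The lack of a call between those groups says nothing of them.

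GATA3, required for T cell development, averaged 56.6 ± 3.80 CPM in CTRL, and 44.5 ± 2.1 in hnCD16, with 15.3 ± 1.67 for FR1 and 21.7 ± 1.13 for FR2. It was lower by 1.54 ± 0.0789 on the log2 scale in FR1 than in hnCD16. GATA2, the stem cell member of the family, averaged 3.3 ± 0.217 and 2.80 ± 0.227 CPM in CTRL and hnCD16, with at most 1 count in any FR1 or FR2 library. GATA1, the erythroid member, had at most 5 counts in any library and was not tested. RUNX1, a core DNA-binding partner in the TAL1 complex, fell by 2.15 ± 0.0527 in FR1 and 1.79 ± 0.0515 in FR2 against hnCD16, from 176 ± 6.04 CPM to 39.8 ± 1.74 and 51.0 ± 1.41. Its cofactor CBFB was at 168 ± 6.86 CPM in hnCD16 and 261 ± 8.05 in FR1, a log2 difference of 0.63 ± 0.0547 that stayed under the fold threshold.

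The single-stranded DNA-binding proteins stabilize LDB1, and 1 of the 3 measured was a DEG. SSBP2 averaged 220 ± 7.33 CPM in CTRL and 239 ± 7.12 in hnCD16, but 4.55 ± 0.416 in FR1 and 3.94 ± 0.693 in FR2, log2 fold changes of −5.71 ± 0.0828 and −5.92 ± 0.0843 against hnCD16. SSBP3 and SSBP4 differed from hnCD16 by −0.21 ± 0.0603 and −0.60 ± 0.0766 in FR1. LDB1 itself was at 96.4 ± 3.78 CPM in CTRL, and 76.2 ± 3.59 in hnCD16, with 40.1 ± 1.75 for FR1 and 52.3 ± 2.28 for FR2, a DEG for FR1 against CTRL but not against hnCD16 (−0.93 ± 0.0571).

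Of the E proteins, which pair with TAL1 and LYL1, TCF12 was lower in FR1 and FR2 than in hnCD16 by −1.0 ± 0.0544 and −1.22 ± 0.0549, the first at the threshold itself. TCF3 was the most even partner, at 174 ± 10.1, 137 ± 6.95, 137 ± 10.6 and 155 ± 0.785 CPM in CTRL, hnCD16, FR1 and FR2. TCF4 was at 15.0 ± 2.24 CPM in hnCD16 and 26.6 ± 2.29 in FR1 (0.82 ± 0.0959). Of the corepressors, CBFA2T3 had 287 to 372 counts in every CTRL and hnCD16 library and at most 3 in any FR1 or FR2 library. KDM1A, SIN3A and HDAC1 differed by −0.75 ± 0.0542, −0.82 ± 0.0556 and −0.18 ± 0.0477 in FR1 against hnCD16. KDM1A and SIN3A were DEGs against CTRL alone.

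The paralogs of the factors differed in both directions. Of 10 listed, 9 were tested, and in FR1 against hnCD16 4 were higher DEGs (all genes: 18.7%) and 2 lower (19.6%), with the same counts in the other 3 comparisons of a fusion receptor group with CTRL or hnCD16. The median log2 fold change in FR1 against hnCD16 was 0.84, beside −0.01 over all genes. LMO4, a LIM-only gene of many tissues, averaged 16.9 ± 0.838 CPM in hnCD16 and 65.2 ± 2.27 in FR1 and 83.5 ± 1.31 in FR2. FR1 and FR2 were higher than hnCD16 by 1.95 ± 0.0557 and 2.31 ± 0.0552 on the log2 scale. LMO3 had 0 counts in all CTRL and hnCD16 libraries and 35 to 49 in FR1 and 58 to 73 in FR2, at least 15.6-fold and 23.7-fold higher than in hnCD16. LMO2 was lower in FR1 and FR2 and these relatives were higher.

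MEF2D, a paralog of MEF2C, averaged 17.2 ± 0.675 CPM in CTRL, and 14.5 ± 0.791 in hnCD16, with 249 ± 8.33 for FR1 and 278 ± 11.7 for FR2. The log2 fold changes against hnCD16 were 4.11 ± 0.0613 and 4.26 ± 0.0614. MEF2A differed by 0.78 ± 0.0552 in FR1, under the fold threshold, and MEF2B was at 0.739 to 1.39 CPM in all 4 groups. MYBL1 averaged 6.94 ± 0.759 CPM in hnCD16 and 14.4 ± 1.14 in FR1 (1.05 ± 0.139), whereas MYBL2, the cell cycle member of the MYB family, was at 211 ± 11.6 and 211 ± 14.1 CPM. TLX2 had 83 to 114 counts in every CTRL and hnCD16 library and at most 3 in any FR1 or FR2 library. ZNF423, the paralog of ZNF521, had 160 to 252 counts and 0 respectively, and was at least 52.7-fold lower in FR1 than in hnCD16. TAL2 had at most 2 counts in any library. Within the pairs, 0 of the 9 were DEGs by edgeR or DESeq2, with 4 at an unadjusted p under 0.05 in hnCD16 against CTRL (all genes: 49.4%) and 3 in FR1 against FR2 (43.8%). TLX2 and ZNF423 were at or under the floor in FR1 and FR2, as LMO3 was in CTRL and hnCD16. These genes are counted among the 9 but could not show a difference within that pair.

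**Figure D3:**
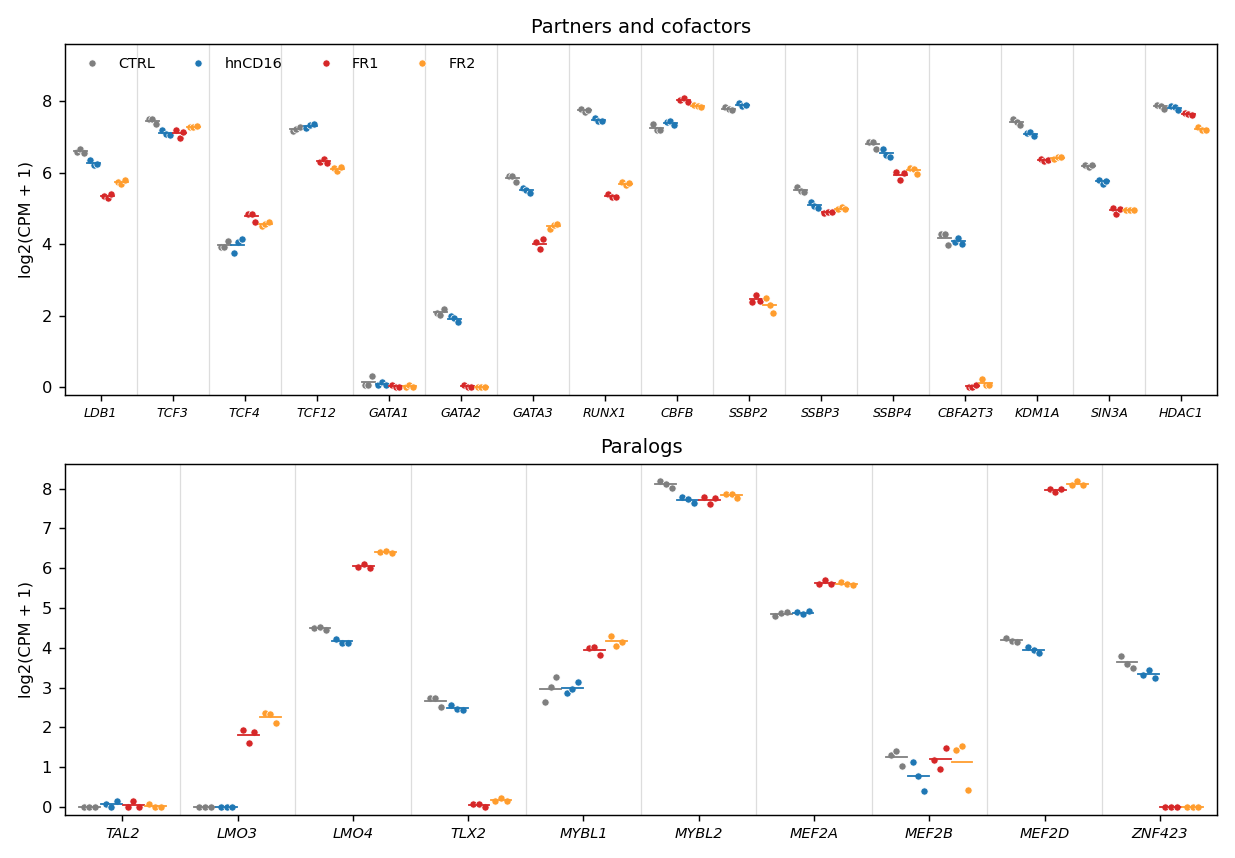
Partners and cofactors (top) and paralogs (bottom) are shown as log2(CPM + 1), 1 point per library and a line at each group's mean. SSBP2, RUNX1, GATA3 and CBFA2T3 lie lower in FR1 and FR2 than in CTRL and hnCD16, TCF3 and MYBL2 are near level, and MEF2D, LMO4 and LMO3 lie higher.

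Of 30 other factors of T cell leukemia, 27 were tested, and in FR1 against hnCD16 6 were higher and 13 lower DEGs (all genes: 18.7% and 19.6%), with a median log2 fold change of −0.51 beside −0.01 over all genes. The higher ones included HOXA9, HOXA10, HOXA11 and ZEB2, of which the HOXA genes encode homeobox factors of blood progenitors. HOXA9 averaged 0.0835 ± 0.0570 CPM in CTRL, and 0.0361 ± 0.0313 in hnCD16, with 36.2 ± 1.47 for FR1 and 35.1 ± 1.52 for FR2. ZEB2, a zinc finger repressor that NK cells need for terminal maturation, had 0 counts in hnCD16, at most 1 in CTRL and 1988 to 2040 in FR1. The lower ones included NOTCH1, TCF7, LEF1, BCL11B and MYC. NKX2-5, a homeobox gene activated by translocation in T cell leukemia, had 3088 to 3443 counts in CTRL, and 2254 to 2501 in hnCD16, with 0 to 2 for FR1 and 3 to 6 for FR2. WT1 had 434 to 617 counts in each CTRL and hnCD16 library and 0 in FR1 and FR2. In hnCD16 against CTRL edgeR and DESeq2 called 0 of the list, with 17 at an unadjusted p under 0.05 (all genes: 49.4%). HOXA9, HOXA10, HOXA11 and ZEB2 were at or under the floor in both of these groups, so the lack of a call says nothing of them.

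The list of early progenitor genes and targets of these factors had 27 tested of 32. In FR1 against hnCD16 8 were higher and 11 lower DEGs (all genes: 18.7% and 19.6%), with a median log2 fold change of −0.20 beside −0.01 over all genes. Against CTRL there were 6 and 11 (all genes: 18.3% and 19.8%). ALDH1A2, a TAL1 and LMO2 target that makes retinoic acid, averaged 241 ± 13.7 CPM in CTRL and 259 ± 12.4 in hnCD16, with at most 5 counts in any FR1 or FR2 library. CD44 had 722 to 850 counts in CTRL and hnCD16 and at most 2 in FR1 and FR2. CCND2, a cyclin of the G1 phase, averaged 0.168 ± 0.0283 CPM in CTRL, and 0.449 ± 0.0613 in hnCD16, with 272 ± 3.04 for FR1 and 313 ± 8.10 for FR2, and was the one DEG of the list in hnCD16 against CTRL (edgeR adjusted p = 0.0161, on 3 to 9 counts). IGFBP7 averaged 0.233 ± 0.0605 CPM in hnCD16 and 166 ± 12.7 in FR1. Between FR1 and FR2 the NOTCH targets DTX1 and HES1 and the recombinase gene RAG1 were lower in FR1, on at most 21 counts in any library of either group. None of the list was called there without FR1 replicate 2, and CCND2 was not called in hnCD16 against CTRL without CTRL replicate 3. The stem cell markers gave little signal, with CD34 at 1.38 to 1.56 CPM in all 4 groups and KIT at 0 CPM in CTRL, hnCD16 and FR1.

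The nearest protein-coding gene on each side of the 7 factors was followed as well. Of 13 such neighbors tested, 1 was a higher and 2 were lower DEGs in FR1 against hnCD16 (all genes: 18.7% and 19.6%), and 0 and 4 in FR2 against hnCD16 (19.6% and 19.8%). Against CTRL there were 2 higher and 2 lower in FR1 (18.3% and 19.8%), and 1 and 3 in FR2 (18.7% and 19.6%). STIL, beside TAL1 and joined to it by deletion in some T cell leukemias, averaged 50.1 ± 1.0 CPM in CTRL, and 56.8 ± 1.07 in hnCD16, with 120 ± 2.82 for FR1 and 110 ± 2.72 for FR2. PDZK1IP1, on the other side of TAL1, had at most 4 counts in any library. HHEX lies between KIF11, at 154 ± 25.6 CPM in hnCD16 and 145 ± 3.62 in FR1, and EXOC6, which was lower in FR1 by −1.56. NFIX beside LYL1 was lower by −2.29 at 0.682 ± 0.158 CPM in hnCD16, and TRMT1 was at 43.2 ± 3.76 and 25.2 ± 1.07 CPM. The neighbors of LMO2 (FBXO3 and CAPRIN1, 0.76 and −0.65), MYB (HBS1L and AHI1, −0.57 and −0.08), MEF2C (TMEM161B and CETN3, −0.00 and −0.56) and ZNF521 (HRH4 and SS18, 0.57 and −0.44) stayed under the fold threshold in FR1 against hnCD16. In other comparisons CAPRIN1 was a lower DEG in FR2 against hnCD16 (−1.11) and FBXO3 a higher one in FR1 against CTRL (1.06). TRMT1 was a lower DEG in FR2 against hnCD16 (−1.30) and CTRL (−1.44).

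The genes whose profile over the 12 libraries was most like that of each factor were found by the root mean square difference of centered log2(CPM + 1). They were NKD2 (0.0914) and GPHN (0.0982) for TAL1, RADX (0.091) and LCT (0.0954) for LYL1, and ZNF568 (0.073) and ZNF20 (0.0877) for LMO2. HHEX was nearest to TCEAL8 (0.105) and TWSG1 (0.115), and ZNF521 to GOLGA8O (0.0667) and ELOVL4 (0.0843). MYB was nearest to ZNF44 (0.0906) and SPIN2B (0.0919). SPIN2B averaged 7.54 CPM in CTRL and 0 CPM in FR1, unlike MYB, so the 1 added to CPM shapes that likeness. TADA2A (0.0633) was among the nearest to MEF2C. Such profiles were common, since between 100 genes for ZNF521 and 1960 for MEF2C lay within 0.5 of a factor.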

How the data were processed

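Sorted eGFP-positive YT cells were profiled from total RNA, and the protocol in the labels names both ribosomal RNA depletion and oligo(dT) enrichment. According to the study's methods and the submitters' processing notes, the authors used SOAPnuke to filter reads, HISAT2 2.1.0 to map to GRCh38.p13 (Bowtie2 2.3.4.3 is also named) and RSEM 1.3.1 to quantify each library. The deposited tables hold expected counts and TPM per gene and per transcript, made by the authors. Pooled averages (32 columns) and 60 further per-sample value columns with no matching sample were not used.

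Expected counts were rounded, genes kept by filterByExpr (13657 of 17589), scaled by TMM (factors 0.939 to 1.11) and tested in 1 fit of 12 libraries with edgeR 4.0.16 (R 4.3.3) quasi-likelihood tests. TPM served to compare genes. DESeq2 1.42.0 and limma 3.58.1 gave alternatives, and the scripts were tested on simulated data. No 2 libraries of a group agreed within sampling noise. The genes and lists were chosen with earlier results of these data known. Named were every listed factor, every measured partner and paralog, the 2 highest and 2 lowest DEGs of the other lists in FR1 against hnCD16 at a mean of at least 1 CPM, and each factor's nearest neighbors and 2 most similar profiles, except results that are not reported here. DTX1, HES1 and RAG1, among other names of called genes, fall outside that rule and were named after their values were seen. The floor of 3 counts and the 95% intervals cover counting error only. Promoters are RefSeq sequences.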

Additional observations from a re-analysis of the deposited data

How the results depend on the processing

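The comparisons of FR1 and FR2 with the other groups chose the factors, so no stability is read from their values there. Without the fold threshold, 1 factor passed an adjusted p of 0.05 in FR1 against FR2 (all genes: 36.2%) and 5 in hnCD16 against CTRL (43%). In FR1 against FR2 only MYB and MEF2C were above the floor. With the fold threshold, 1.93% of all genes were DEGs in FR1 against FR2 and 0.527% in hnCD16 against CTRL, for the list counts below. Same-numbered libraries did not deviate together in every pair (mean correlation −0.0349 for FR1 and FR2, 0.254 for hnCD16 and CTRL with a lowest pair of 0.0196), so the numbers were not taken as pairs. With the replicate block the other leukemia factors called in FR1 against FR2 numbered 2, in place of 1, and HHEX gave 0.00 there. Fitted on only the groups compared, the early progenitor and target list gave 1 call in FR1 against FR2 in place of 3, and 0 in hnCD16 against CTRL in place of 1.

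Leaving out 1 library gave 0 to 2 calls of that list in FR1 against FR2 (0 without FR1 replicate 2) and 0 to 1 in hnCD16 against CTRL (0 without CTRL replicate 3), 1 to 2 of the other leukemia factors in FR1 against FR2 (2 without FR1 replicate 3) and 0 to 1 of the paralogs in hnCD16 against CTRL (1 without hnCD16 replicate 1). Signs turned only for uncalled differences, and those of FR1 against FR2 below are fitted values at the floor. LMO2 in FR1 against FR2, on 1 count a group, was −0.03 with library size scaling, −0.00 on log2(TPM + 1), −0.03 on log2(TPM + 0.1) and −1.92 to 1.94 with a library left out, of which −0.46 and −0.43 without FR2 replicates 1 and 2. ZNF521 in FR1 against FR2 was −3.25 to 0.00 (0.00 without FR2 replicate 2), and in hnCD16 against CTRL −0.01 with library size scaling and −0.05 in both limma fits. The cause was not tested. At these depths, levels under 3 counts cannot be told from 0.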
